A study of Danio rerio with 58 samples.

Results

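Of the 18 cells picked from the floor of the zebrafish dorsal aorta at 21 hours post fertilization (hpf), 4 cells had high counts of the endothelial genes kdrl and cdh5 and few counts of globin genes. These endothelial floor cells, numbers 3, 6, 16 and 18 in the labels, were set against all 18 roof cells of the same stage. The 22 cells belonged to a series of 58. All embryos carried both Tg(flk1:eGFP) and Tg(flk1:NLS-Eos), so that the promoter of flk1, an older name of kdrl, drove a green protein and a nuclear protein that light converts from green to red. The groups differed in the side of the vessel at which Eos had been converted, and they shared genotype, stage, tissue and hand picking of red cells. Each cell gave 1 library made by Smart-seq2, a method that copies the whole length of polyA RNA and adds no molecular identifiers. The sources used here name no embryo for any cell, so each group counted as 1 sample and cells were not treated as replicates. The floor cells had been chosen on counts of these same libraries, and every difference is therefore given as a description, with no p-value.

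The dorsal aorta is the first large artery of the embryo, and its 2 sides have different fates. In zebrafish, blood stem cells arise from hemogenic endothelium, endothelial cells of the floor that turn on runx1 and leave the vessel wall. The Etv2 transcription factor starts the endothelial program in the mesoderm, and Notch ligands and the hey and her target genes set arterial identity. Hedgehog protein comes from the notochord, above the roof, and its signal is passed on through the membrane protein Smo and the Gli factors. Bone morphogenetic protein (BMP) comes from tissue below the floor.

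The values that chose the cells come first. In floor cells 3, 6, 16 and 18 the pan-endothelial share of counts was 2.18%, 3.72%, 2.44% and 0.987%. Among roof cells that share ran from 0.554% in roof cell 7 to 5.39% in roof cell 3, with a median of 2.44%. Floor cell 18 had the lowest share of the 4, and the highest share among the floor cells left out was 0.452%. Erythroid genes took 0.00796% to 0.0163% of the counts of the chosen cells, against 0.00134% to 0.106% in the roof and 0.212% to 9.62% in the 14 other floor cells. In the plot of endothelial against erythroid shares the 4 cells lay among the roof cells, well away from the other floor cells.

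**Figure D1:**
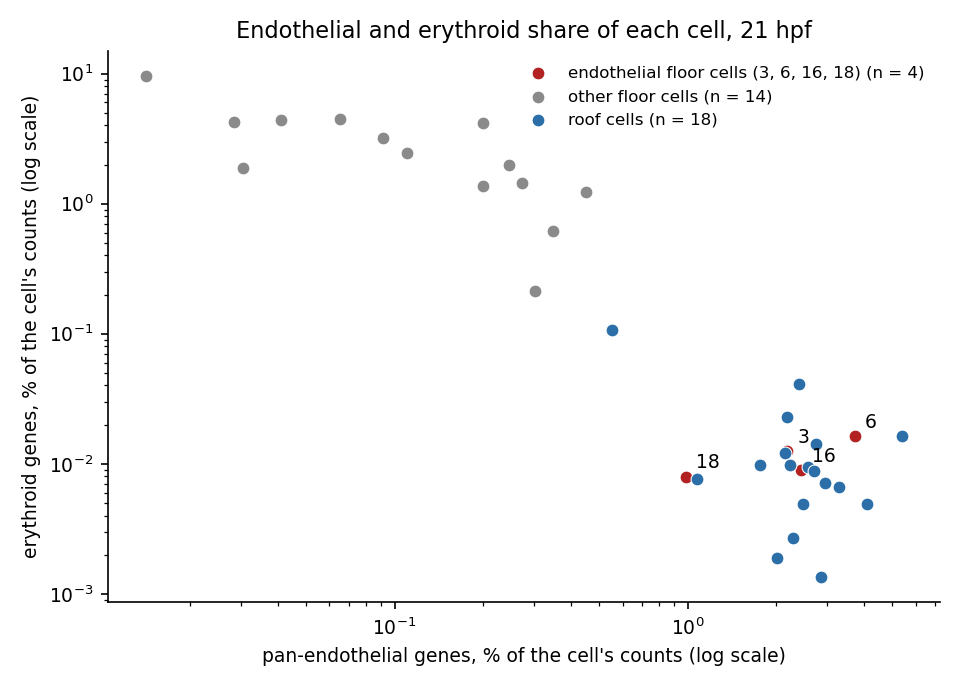
Share of each cell's counts on pan-endothelial genes (horizontal, percent, log scale) and on erythroid genes (vertical, percent, log scale) for 4 endothelial floor cells, 18 roof cells and 14 other floor cells of 21 hpf; each point is 1 cell. The chosen floor cells reach 0.987% to 3.72% endothelial counts, and no other floor cell exceeds 0.452%.

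Of 4 endothelial marker genes, kdrl and cdh5 had served to choose the cells, while cldn5b and dll4 had not been named in the choice. The gene kdrl, which encodes a receptor for vascular endothelial growth factor, stood at 7172, 22311, 4829 and 2208 counts per 1000000 (CPM) in floor cells 3, 6, 16 and 18, and the roof ran from 1317 through a median of 7491 to 37974 CPM. The junctional cadherin gene cdh5 stood at 309, 934, 1116 and 613 CPM, against a roof median of 890 CPM, and the tight junction gene cldn5b stood at 3219, 328, 665 and 513 CPM, against a median of 719 CPM. All 12 of these floor values lay inside the roof range except cldn5b of floor cell 3, which lay above it. The arterial Notch ligand gene dll4 was high in floor cells 3, 16 and 18 (2373, 701 and 1221 CPM) but at 27.7 CPM in floor cell 6, under the lowest roof cell (70.8 CPM). With every cell thinned to equal depth, 18 to 22 of the 22 measured pan-endothelial genes had 5 or more reads in a floor cell, against 13 to 22 in a roof cell and only 2 to 12 in any of the other 14 floor cells.

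With the pan-endothelial and erythroid lists left out, the cells differed from the other floor cells by a low likeness to those cells and not by a high likeness to the roof. Over 8793 genes left after the pan-endothelial and erythroid lists were taken out, the Spearman correlation of each chosen cell with the roof mean was 0.451 to 0.504, and with the mean of the other floor cells 0.252 to 0.421. The other floor cells had 0.387 to 0.524 with the roof mean, a range that holds all 4 chosen cells, and 0.615 to 0.766 with the mean of their own kind. These are correlations across genes that share library chemistry and depth, and they are given as a description. Genes that vary along with the lists taken out were kept. The genes were also those measured in the chosen floor cells or the roof, without regard to the other floor cells. The low likeness to the other floor cells is therefore not separate from the choice of cells. Roof cells reached 0.499 to 0.704 with the mean of the remaining roof cells, and 3 of the 4 chosen cells lay below that range.

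Total counts were 1143592, 685494, 1732119 and 879471 in floor cells 3, 6, 16 and 18, and ran from 129849 to 4693992 in the roof with a median of 1744157, so all 4 floor cells lay below the roof median. To set them on equal depth, every cell was thinned to 125000 reads before reads were summed over a group. At that depth the floor cells had reads in 4311 to 5632 genes and the roof cells in 2955 to 7161. Mitochondrially encoded genes took 1.54% to 2.23% of floor counts and 0.334% to 6.21% of roof counts. Roof cell 7 stood apart, with the lowest endothelial, the highest erythroid and the highest mitochondrial share of the roof, and roof cell 10 had the highest share of myeloid genes (0.182%).

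Levels of single cells below are CPM of the deposited counts, in the order of floor cells 3, 6, 16 and 18. Ratios are of summed thinned reads, and the interval after a ratio is an exact 95% interval for read counting, which leaves out how cells and embryos vary. Where 1 group had 0 reads it was set to 3 reads, and the ratio is given as a bound. Of 8820 genes with 10 CPM or more in either group, 2322 (26.3%) were at least 2-fold higher in the floor cells, 2559 (29.0%) at least 2-fold lower and 3939 (44.7%) within 2-fold. The median log2 ratio over these genes was -0.13. A 2-fold difference between 4 and 18 single cells was thus common, and the counts of gene groups are to be read against these shares.

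Of the gene groups examined, mitosis genes had the median ratio farthest from 1. All 25 measured mitosis genes were at least 2-fold lower in the endothelial floor cells, against 29.0% of all measured genes, with a median log2 ratio of -4.28, a bound that equals at least 19.4-fold. The same 25 genes were lower when any 1 cell was left out. Together they took 0.0136%, 0.0684%, 0.00612% and 0.00523% of the counts of the 4 floor cells, and the roof ran from 0.000498% in roof cell 18 through a median of 0.492% to 1.22% in roof cell 3. The groups overlapped, since 4 roof cells lay at or below floor cell 6, while all 4 floor cells lay below the roof median. The 14 other floor cells had 0.0286% to 1.16%, with a median of 0.451%, and 2 of them also lay below floor cell 6. At equal depth 2, 6, 1 and 0 of the 25 genes had 5 or more reads in the 4 floor cells, against a median of 18 in a roof cell and 16.5 in the other floor cells.

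Single mitosis genes showed the same picture. The proliferation marker mki67 stood at 5.25, 16, 0 and 45.5 CPM in the floor cells, and in the roof ran from 0 through a median of 810 to 1984 CPM. It was 90.1-fold (35.1 to 331) lower by summed reads, and 14 of 18 roof cells lay above all 4 floor cells. The cyclin A gene ccna2, needed for entry into S phase and mitosis, had 0 reads in the floor sum and 248 CPM in the roof sum, at least 41.3-fold lower. It was at 0 in 3 floor cells and at 0.577 CPM in floor cell 16, below 17 of 18 roof cells. The cell cycle kinase gene cdk1 stood at 38.5, 0, 55.4 and 0 CPM against a roof median of 253 CPM, 10.7-fold lower (6.71 to 18.1), or 18-fold without floor cell 16. Floor cell 6 differed from the other three: it had 195 CPM of the polo-like kinase gene plk1, 102 CPM of the topoisomerase gene top2a and 97.7 CPM of the spindle checkpoint kinase gene ttk, all 3 near or below the roof medians of 376, 230 and 92.2 CPM, where each other floor cell had under 5 CPM.

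**Figure D2:**
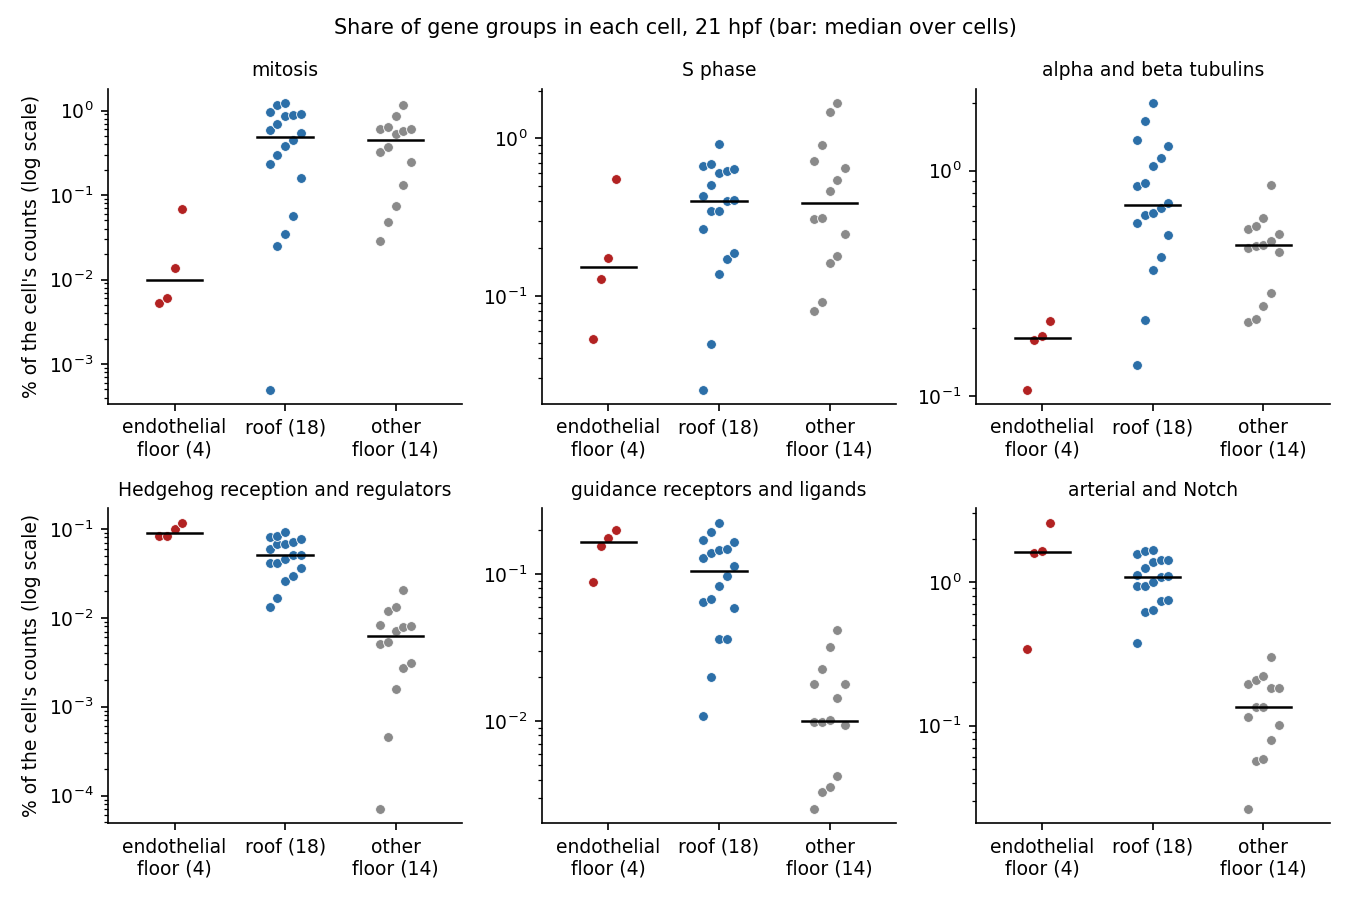
Percent of each cell's counts (log scale) on 6 gene groups; each point is 1 cell, the columns are 4 endothelial floor cells, 18 roof cells and 14 other floor cells, and black bars are medians. Mitosis genes have a median share of 0.492% in the roof and at most 0.0684% in the endothelial floor cells, while Hedgehog reception genes have their highest median in those cells. The tubulin and Hedgehog reception groups were listed after values were seen.

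Of 508 genes that met the naming rule for lower genes, the 15 with the largest ratios included mitosis genes again: tpx2, tacc3, dlgap5 and aurkb, which act on the mitotic spindle, the mitotic kinesin gene kif20a, mki67, and the importin gene kpna2. For kpna2 the floor cells had 1.75, 1.46, 1.15 and 0 CPM, and the roof ran from 0 through a median of 194 to 3947 CPM. Its ratio of 318-fold (57.0 to 12569) rested on 1 floor read, which was in floor cell 16. Without that cell it was a bound of at least 79.5-fold. Other genes of the 15 have roles outside division, among them the formin gene daam1a, which acts on the actin cytoskeleton, and the Ral GTPase gene ralab, which acts in membrane traffic. The rest were cb111, prrc2a, dnajc9 and zgc:112332, and tgfb1a and rbbp4, which are described further on. Floor levels of daam1a were 0, 0, 19.1 and 0 CPM against a roof median of 90.4 CPM, and 11 of 18 roof cells lay above all 4. Its log2 ratio was -5.81, or a bound of -3.81 without floor cell 16. Since a floor sum of 0 was set to 3 reads, a gene with fewer floor reads than that, but not 0, got a larger ratio. Ranking by ratio thus favours such genes, for example aurkb with 2 floor reads, over genes at 0.

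Genes of DNA replication were lower by less and not in every cell. Of 23 measured S-phase genes 12 were at least 2-fold lower, 3 were at least 2-fold higher and 8 lay within 2-fold, with a median log2 ratio of -1.25. The shares of all measured genes were 29.0% lower and 26.3% higher. The replication fork helicase factor gene cdc45 was at 0 in all 4 floor cells, while 17 of 18 roof cells had reads (median 111 CPM), at least 18.4-fold lower. The flap endonuclease gene fen1 stood at 1.75, 70.0, 0 and 159 CPM against 50.7, 322 and 770 CPM as lowest, median and highest of the roof. Floor cell 18 was the exception among the 4: it had 1039, 670 and 492 CPM of the licensing helicase genes mcm2, mcm3 and mcm5, where floor cell 3 had 3.50, 2.62 and 0 CPM, and 798 CPM of the sliding clamp gene pcna, above the roof median of 610 CPM. The S-phase share was 0.552% of counts in floor cell 18 and 0.0528% to 0.174% in the others, against a roof median of 0.401%. In that cell 16 of the 23 S-phase genes and 0 of the 25 mitosis genes had 5 or more reads at equal depth.

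Among regulators of the cycle, the inhibitor gene cdkn1ca was higher. It stood at 101, 255, 142 and 0 CPM in the floor cells and at 0 in 16 of 18 roof cells, with a highest roof value of 49.7 CPM, 33.4-fold higher (15.1 to 87.2), or 110-fold without roof cell 14. All 14 other floor cells were at 0. The floor cell without cdkn1ca was floor cell 18, the cell with the highest S-phase share. A list of G1 regulators and inhibitors, drawn up after these values were seen, had 21 measured members, of which 4 were at least 2-fold higher and 8 at least 2-fold lower. For all measured genes these shares were 26.3% and 29.0%. The D cyclin gene ccnd1, which carries cells through G1, stood at 5.25, 13.1, 188 and 0 CPM against a roof median of 85.1 CPM, and floor cell 16 alone lay above that median. The retinoblastoma gene rb1, a brake on S-phase entry, stood at 0.874, 761, 0 and 240 CPM against a roof median of 5.55 and a roof maximum of 277 CPM.

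Few genes separated the 2 groups cell by cell. In all 5 genes (0.0567% of those measured) were higher in each of the 4 floor cells than in any roof cell, and 4 genes (0.0454%) were lower in each. The total of 9 was 35, 25, 21 or 26 without floor cell 3, 6, 16 or 18 and 14 without roof cell 10 or roof cell 15, and otherwise 9 to 13 without 1 roof cell. The wider criterion of all 4 floor cells above the roof median was met by 415 genes (4.71%), and all 4 below it by 843 (9.56%). All 4 of the genes below every roof cell had 50 CPM or more in the roof, while 2 of the 5 above did in the floor.

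The first of the lower genes was rbbp4, which encodes a histone-binding subunit that several chromatin complexes share. It had 0 reads in each of the 4 floor cells, and every roof cell had reads, from 54.0 through a median of 370 to 1330 CPM. By summed reads it was at least 70.1-fold lower. The other floor cells had a median of 267 CPM, so the gene was not at 0 across the floor. Proteins that work with Rbbp4 were looked at after this result was seen. Of 22 measured genes of its complexes 11 were at least 2-fold lower, 11 lay within 2-fold and 0 were at least 2-fold higher. Over all measured genes 29.0% were lower and 26.3% higher by that much. The median log2 ratio of the 22 genes was -1.02. The histone deacetylase gene hdac1 stood at 289, 426, 446 and 430 CPM against a roof running from 445 through 908 to 2198 CPM, 2.27-fold lower (1.97 to 2.62), with 17 of 18 roof cells above all 4 floor cells. The DNA-replication chromatin assembly gene chaf1a stood at 25.4, 77.3, 0 and 163 CPM, all 4 below the roof median of 179 CPM.

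The next gene was ppp2r5ea, a regulatory subunit of protein phosphatase 2A. Its floor levels were 0.874, 0, 0.577 and 0 CPM, and the roof ran from 2.78 through 219 to 771 CPM, at least 35.6-fold lower. A close relative, ppp2r5eb, stood at 50.7, 270, 68.7 and 217 CPM against a roof median of 161 CPM, so the groups overlapped there. The catalytic subunit gene of protein phosphatase 1, ppp1cab, stood at 129, 174, 64.1 and 190 CPM, below the lowest roof cell at 196 CPM and a median of 770 CPM, 5.44-fold lower (4.29 to 7.00). Its paralog ppp1caa overlapped, at 172, 1066, 858 and 355 CPM against a median of 638 CPM. Reads of such paralogs can be divided between them in ways the deposited counts do not show, so the difference between the paralogs is uncertain. Of 14 measured subunit genes of the 2 phosphatases, listed after the values were seen, 3 were at least 2-fold lower and 0 at least 2-fold higher. Over all measured genes 29.0% were lower and 26.3% higher by that much. The list followed from the levels of ppp2r5ea and ppp1cab, so nothing further is read from that count.

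The last was the alpha tubulin gene tuba8l, at 229, 136, 425 and 372 CPM in the floor cells and from 428 through a median of 1712 to 4506 CPM in the roof, 7.72-fold lower (6.48 to 9.27). The beta tubulin gene tubb2b was 10.3-fold lower (8.86 to 12.1), at 376, 445, 126 and 531 CPM against 209, 3019 and 10957 CPM in the roof. For tubb2b 17 of 18 roof cells lay above all 4 floor cells. Of 11 measured tubulin genes, again listed after the values were seen, 9 were at least 2-fold lower and 2 within 2-fold, and none was at least 2-fold higher. Over all measured genes 29.0% were lower and 26.3% higher by that much. The levels of tuba8l and tubb2b prompted the list, so the count and the summed share are not separate from them. Tubulins together took 0.107% to 0.216% of the counts of the floor cells and 0.138% to 1.99% of those of the roof cells, and 1 roof cell lay at or below the highest floor cell. Tubulin genes are close in sequence, and the division of reads among them is uncertain for single members.

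**Figure D3:**
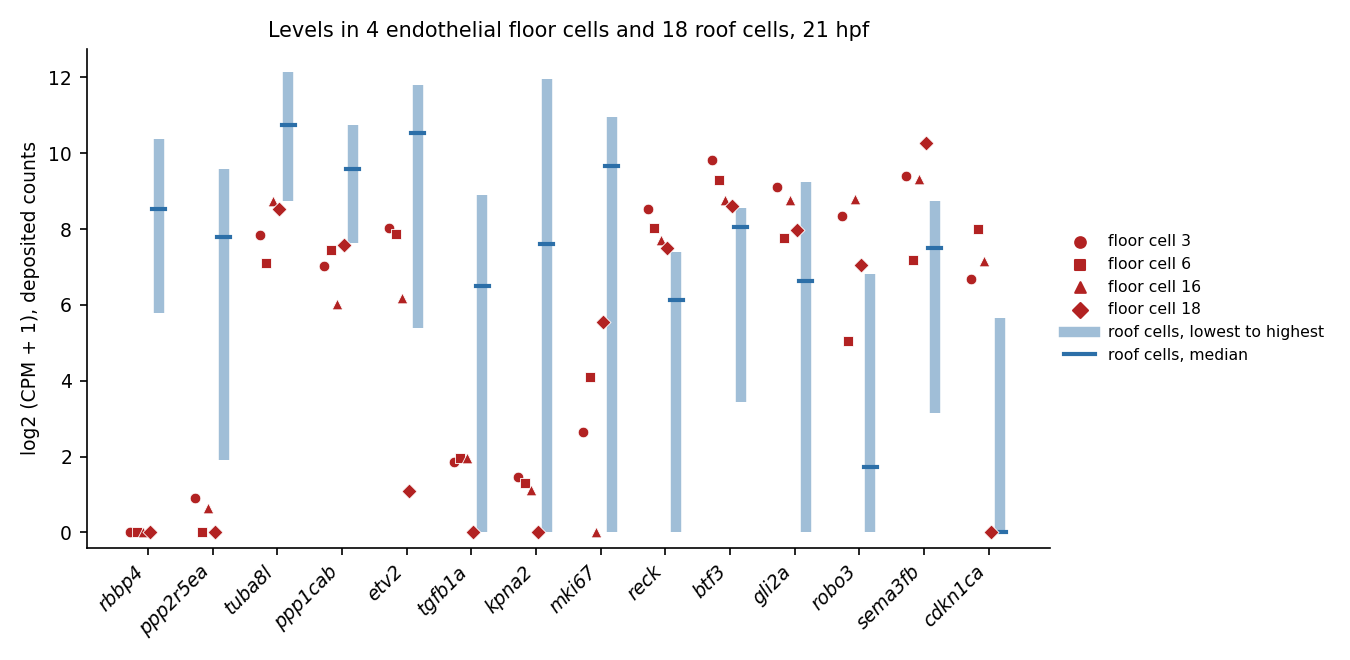
Levels of 14 genes as log2 (CPM + 1) of the deposited counts; red symbols are floor cells 3, 6, 16 and 18, blue bars span the lowest to the highest of 18 roof cells, and dark lines are roof medians. For rbbp4, ppp2r5ea, tuba8l and ppp1cab every red symbol lies below the blue bar, and for reck and btf3 every one lies above it.

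Of the genes above every roof cell, reck and btf3 had the higher levels. The gene reck encodes a membrane-anchored protein that inhibits matrix metalloproteinases and, with Gpr124, receives Wnt7 in brain vessels of zebrafish and mouse. It stood at 368, 260, 211 and 182 CPM in the floor cells and from 0 through 69.6 to 166 CPM in the roof, 3.75-fold higher (2.93 to 4.79). The translation-associated gene btf3 stood at 909, 632, 435 and 390 CPM against 9.80, 267 and 376 CPM, 2.21-fold higher (1.91 to 2.55). For btf3 the other floor cells had a median of 574 CPM, inside the range of the chosen cells, whereas for reck their highest value was 118 CPM. The ubiquitin-conjugating enzyme gene ube2q1 was above all roof cells at 51.6, 30.6, 49.1 and 101 CPM, where the highest roof cell had 23.9 CPM.

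The genes highest by ratio under the naming rule, 15 of 156 that met it, were mostly at or near 0 in the roof. For higher genes the rule sets a minimum level in the floor only, so ranking by ratio itself favours genes of low roof level. The ubiquitin ligase scaffold gene cul4a stood at 71.7, 162, 102 and 42.1 CPM, above 17 of 18 roof cells, of which 12 were at 0. It was 17.4-fold higher (9.51 to 33.8), or 32.8-fold without roof cell 10, the roof cell with 67.7 CPM. The sec14l1 gene, of a family of lipid-binding proteins, stood at 85.7, 26.3, 41.6 and 45.5 CPM, also above 17 roof cells. The lysyl hydroxylase gene plod1a, whose product modifies collagen, stood at 119, 171, 289 and 0 CPM against a highest roof value of 86.1 CPM. The activin receptor gene named ACVR2B stood at 108, 805, 109 and 11.4 CPM against a highest roof value of 54.6 CPM. For ACVR2B 13 roof cells lay below all 4 floor cells, and its log2 ratio was 4.91, or 3.09 without floor cell 6. A separate entry named acvr2b had 26 CPM in the floor sum and 32 CPM in the roof sum. The remaining members of the 15 were cdkn1ca, described above, cux1a, hnrnph1, myo9ab, abcg2c, dhrs1, nol9, pex19, 2 genes with clone names and 1 known by its identifier only.

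Endothelial identity genes were near roof levels, and the choice of cells had used 2 of them. Of 22 measured pan-endothelial genes 17 lay within 2-fold, 3 were at least 2-fold higher and 2 at least 2-fold lower, with a median log2 ratio of 0.05. Since kdrl and cdh5 chose the cells, nothing is read from that count. Within it, etv2 stood apart, at 262, 235, 71.6 and 1.14 CPM in the floor cells, while the roof ran from 40.7 through a median of 1488 to 3560 CPM. It was 10.8-fold lower (8.51 to 13.8), or 17.4-fold without floor cell 6, and 17 of 18 roof cells lay above all 4 floor cells. The ETS factor gene fli1b was 3.02-fold lower (2.14 to 4.38), at 147, 54.0, 43.3 and 6.82 CPM against a roof median of 202 CPM, or 5.28-fold without floor cell 3. Its paralog fli1a, at 954, 1632, 1993 and 1310 CPM, was also below the roof median of 2285 CPM in all 4 cells but lay within 2-fold. Another ETS gene, erg, stood at 142, 620, 699 and 134 CPM, above the roof median of 263 CPM in floor cells 6 and 16 and below it in floor cells 3 and 18. The SoxF genes sox7 and sox18, which act in vessel formation beside ETS factors, lay within 2-fold. All 4 floor cells had less of the summed ETS and SoxF genes (0.338% to 0.625% of counts) than the median roof cell (0.640%).

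Arterial genes did not separate floor from roof. Of 26 measured arterial and Notch genes 6 were at least 2-fold higher, 5 at least 2-fold lower and 15 within 2-fold, with a median log2 ratio of 0.19. All measured genes together had 26.3% higher, 29.0% lower and 44.7% within 2-fold. The ephrin gene efnb2a, which marks arteries, stood at 1127, 49.6, 1031 and 1193 CPM against a roof median of 546 CPM. The Notch target gene hey2, required for the zebrafish aorta, stood at 708, 204, 404 and 144 CPM, with a roof of 235, 689 and 1514 CPM. For hey2, 9 of 18 roof cells lay above all 4 floor cells, and floor cells 6 and 18 lay below the whole roof. The related gene hey1 was at 496, 0, 94.1 and 70.5 CPM against a roof median of 492 CPM, 3.27-fold lower (2.59 to 4.17), or 11.8-fold without floor cell 3. The receptor gene notch1b stood at 537, 392, 3030 and 1077 CPM, and the value of floor cell 16 exceeded the roof maximum of 1860 CPM. The T-box gene tbx20 had 0 reads in all 4 floor cells, while 11 of 18 roof cells had reads, at least 6.89-fold lower.

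Venous genes were within the roof range for the most part. Of 11 measured members 3 were at least 2-fold higher, 1 at least 2-fold lower and 7 within 2-fold, with a median log2 ratio of 0.62. Among all measured genes the shares were 26.3% higher, 29.0% lower and 44.7% within 2-fold. The endocytic adaptor gene dab2 stood at 355, 1415, 536 and 515 CPM, above 13 of 18 roof cells (median 302 CPM). It was 2.199-fold higher (1.93 to 2.50) and 1.44-fold higher without floor cell 6. The ephrin receptor gene ephb4b stood at 227, 51.1, 46.2 and 136 CPM against a roof median of 14.7 CPM. The neuropilin gene nrp2b, a co-receptor found in veins and lymphatics, stood at 71.7, 68.6, 0.577 and 40.9 CPM, where 14 of 18 roof cells were at 0. The venous factor gene nr2f2 was at 0.874, 0, 0.577 and 0 CPM in the floor and at 0 in 11 of 18 roof cells. The hyaluronan receptor gene stab2 did not stand apart, at 163, 646, 436 and 595 CPM against a roof median of 347 CPM.

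Some genes that receive and read Hedgehog were higher in the endothelial floor cells, and several of these ratios rested on 1 cell. A Hedgehog list held the signal transducer gene smo and the mediator gene gli2a beside targets such as gli1. Of its 5 measured genes 3 were at least 2-fold higher, 1 at least 2-fold lower and 1 within 2-fold. Across all measured genes 26.3% were higher and 29.0% lower by that much. The 3 higher genes of the list were smo, gli2a and gli1. The median log2 ratio was 1.31, which is the value of gli2a itself, or 0.64 without floor cell 18. The transcription factor gene gli2a stood at 553, 217, 433 and 251 CPM in the floor cells and from 0 through 98.2 to 603 CPM in the roof. It was 2.49-fold higher (2.03 to 3.03), and 15 of 18 roof cells lay below all 4 floor cells. The transducer gene smo stood at 103, 83.2, 193 and 659 CPM against a roof median of 86.5 CPM, 2.83-fold higher (2.25 to 3.56) but 1.23-fold without floor cell 18. Reads of gli1, the readout most often used for the pathway, were found in floor cells 3 and 6 (42.8 and 72.9 CPM) and not in floor cells 16 and 18, while 15 roof cells were at 0 and none exceeded 1.99 CPM. It was at least 25.5-fold higher by summed reads, or at least 16-fold without floor cell 6. The ligand-binding inhibitor gene hhip went the other way, at 0 in all 4 floor cells and in 12 roof cells, at least 4.30-fold lower.

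A wider list of 11 measured genes of Hedgehog reception, drawn up after these values were seen, took 0.0824% to 0.118% of the counts of the floor cells. That share was above 17 of 18 roof cells, which ran from 0.0131% to 0.0918%, and above all 14 other floor cells, which ran up to 0.0205%. It is not separate from the levels of gli2a and smo given above. Of these genes 4 were at least 2-fold higher, 1 at least 2-fold lower and 6 within 2-fold, with a median log2 ratio of 0.78, or 0.17 without floor cell 6. All measured genes together had 26.3% higher and 29.0% lower. The co-receptor genes boc and gas1a had most of their floor reads in floor cell 6, at 147 and 198 CPM. The Hedgehog ligand genes shha and shhb and the other notochord and hypochord markers, 10 genes together, had 0 reads in the 4 floor cells.

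By summed reads, genes of axon and vessel guidance were higher more often than lower. Cell by cell, all 4 floor cells lay above the roof median for 3 measured genes and below it for 3. The shares for this over all measured genes were 4.71% and 9.56%. Among all measured genes 26.3% were at least 2-fold higher and 29.0% at least 2-fold lower. Of 14 measured members 7 were at least 2-fold higher, 4 at least 2-fold lower and 3 within 2-fold, with a median log2 ratio of 1.19. That median was 0.41 without floor cell 18 over the same 14 genes, and 0.51 without floor cell 3 when the measured genes were chosen anew. The Slit receptor gene robo3 stood at 325, 32.1, 447 and 133 CPM in the floor cells and from 0 through 2.28 to 112 CPM in the roof, 10.5-fold higher (7.58 to 14.7). For robo3, 3 floor cells lay above the whole roof, and 13 roof cells lay below all 4. The semaphorin gene sema3fb stood at 674, 146, 645 and 1246 CPM against 7.87, 181 and 431 CPM, 3.77-fold higher (3.24 to 4.37), with floor cell 6 inside the roof range. The neuropilin gene nrp1a, whose product binds both semaphorins and vascular endothelial growth factor, stood at 448, 125, 555 and 800 CPM against a roof median of 180 CPM, 2.67-fold higher (2.28 to 3.12). The semaphorin receptor gene plxnd1 was at 124, 23.3, 43.9 and 30.7 CPM, above 15 of 18 roof cells. In contrast robo2 was at 0, 52.5, 0 and 7.96 CPM, all 4 at or below the roof median of 53.4 CPM.

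Markers of sprouting tip cells were mixed. Of 13 measured genes 4 were at least 2-fold higher, 5 at least 2-fold lower and 4 within 2-fold, with a median log2 ratio of -0.65. These counts stand against 26.3% higher and 29.0% lower over all measured genes. The tip cell gene esm1 stood at 141, 0, 214 and 0 CPM, below 12 of 18 roof cells (median 394 CPM), 5.12-fold lower (3.72 to 7.25), or 8.32-fold without floor cell 16. The apelin receptor gene aplnrb was at 0, 8.75, 6.93 and 0 CPM, below 14 of 18 roof cells (median 41.9 CPM), while its paralog aplnra was at 65.6, 397, 115 and 54.6 CPM, above 9 of them. The membrane metalloproteinase gene mmp14b was at 77.8, 1.46, 59.5 and 584 CPM against a roof median of 309 CPM.

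A ligand gene and a receptor gene of transforming growth factor beta (TGF-beta) were lower. The ligand gene tgfb1a was at 2.62, 2.92, 2.89 and 0 CPM in the floor cells, and in the roof ran from 0 through a median of 90.02 to 473 CPM, with 17 of 18 roof cells above all 4 floor cells. Its ratio of 70.9-fold lower (12.6 to 2809) rested on 1 floor read, which was in floor cell 6. Without that cell it was a bound of at least 17.7-fold. The other 14 floor cells were also near 0, with a highest value of 0.690 CPM. The type II receptor gene tgfbr2b stood at 0.874, 33.6, 117 and 0 CPM against a roof median of 257 CPM, 7.73-fold lower (4.78 to 13.4), or 19.7-fold without floor cell 16. The BMP signal transducer gene smad5 stood at 45.5, 163, 72.2 and 50.03 CPM, below 14 of 18 roof cells, 4.20-fold lower (2.96 to 6.15), or 6.92-fold without floor cell 6. Another ligand gene, tgfb3, stood at 35.0, 0, 0 and 205 CPM, where 15 of 18 roof cells were at 0, 19.1-fold higher (8.69 to 47.8), or 3.75-fold without floor cell 18 and 72.2-fold without roof cell 12. Over the whole list of 15 measured receptors and mediators 2 were at least 2-fold higher and 6 at least 2-fold lower. For all measured genes the shares were 26.3% and 29.0%.

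Target genes of BMP differed more among the floor cells than between floor and roof. The inhibitor-of-differentiation gene id1 was at 68.2, 99.2, 2252 and 392 CPM against a roof of 95.3, 1238 and 2973 CPM. The related gene id3 was at 1.75, 0, 423 and 77.3 CPM, and the inhibitory Smad genes smad6a and smad7 were at 266 and 648 CPM in floor cell 16, where floor cells 3 and 6 had 0 of both. Of 8 measured targets 7 lay within 2-fold, against 44.7% of all measured genes, and 1 was at least 2-fold higher. The list's median log2 ratio was -0.65 and went to -2.20 without floor cell 16, the cell that held most of the reads.

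Blood-forming genes had no common direction. Of 18 measured hemogenic genes 5 were at least 2-fold higher, 8 at least 2-fold lower and 5 within 2-fold, with a median log2 ratio of -0.74. By comparison, 26.3% of all measured genes were higher and 29.0% lower by that much. The regulator gene runx1 had 19 and 3.41 CPM in floor cells 6 and 18, and 0 in floor cells 3 and 16 and in all 18 roof cells. Its level did not reach the 10 CPM needed for a measured gene. The repressor gene gfi1aa, which acts downstream of Runx1 in the zebrafish aorta, stood at 4.37, 26.3, 37.5 and 599 CPM, above 16 of 18 roof cells, of which 8 were at 0 and the highest, roof cell 7, had 95.4 CPM. It was 21.9-fold higher (12.7 to 40.3), but 2.62-fold without floor cell 18 and 82.9-fold without roof cell 7. The upstream factor gene gata2b had 16 and 76.2 CPM in floor cells 6 and 18 and 0 in the other two, against a roof maximum of 37.3 CPM. Floor cells 6 and 18 were thus the cells with reads of both runx1 and gata2b, although runx1 in floor cell 18 rested on very few reads (3.41 CPM).

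Other blood genes had reads in 1 chosen cell each. The thrombopoietin receptor gene mpl stood at 591 CPM in floor cell 16 and 0 in the other three, with a roof maximum of 8.58 CPM. The spi1a gene, a myeloid factor, stood at 167 CPM in floor cell 18 only, and the integrin gene itga2b, a marker of thrombocytes and early blood stem cells, at 21.9 CPM in floor cell 3 only, and all 18 roof cells were at 0 for both. The progenitor gene myb was at or under 2.27 CPM in the 4 cells. In the roof it reached 821 CPM in roof cell 10 and was at 0 in 10 cells. By summed reads it was at least 12.9-fold lower in the floor, or at least 5.10-fold without roof cell 10. The shared blood and vessel factors tal1 and lmo2 stood at 185, 77.3, 53.1 and 121 CPM and at 431, 249, 419 and 366 CPM, against roof medians of 179 and 529 CPM. All 4 floor cells lay below the roof median for lmo2, and the ratio of tal1 was 2.55-fold lower (1.90 to 3.50).

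The choice of cells with few globin counts fixed low erythroid levels, which are given only as a description. The erythroid factor gene gata1a was at 0 in all 4 floor cells, the globin gene hbae3 was at 1.73 to 5.69 CPM, and the granule enzyme gene mpx was at or under 1.14 CPM. Of 23 erythroid markers 18 had some reads, led by hbbe3 at up to 71.0 CPM, and 5 of 14 myeloid markers did, while lyz, spi1b and mpeg1.1 were among the 9 at 0. Myeloid markers took 0.00598% to 0.0169% of the counts in the floor cells and 0% to 0.182% in the roof. The part of such reads in the blood gene results was not tested.

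Genes of transition and adhesion were mostly within 2-fold of the roof, with single genes apart, while integrin and matrix genes were more mixed. The beta-catenin gene ctnnb1, which serves both junctions and Wnt signalling, stood at 1024, 608, 421 and 972 CPM against a roof median of 324 CPM, 2.17-fold higher (1.91 to 2.46), and 13 roof cells lay below all 4 floor cells. The junction gene heg1, a partner of the cerebral cavernous malformation proteins, stood at 34.1, 29.2, 68.1 and 25.0 CPM, above 17 of 18 roof cells, of which 11 were at 0. The transcription factor gene zeb2a was at 68.2, 0, 0 and 0 CPM against a roof median of 102 CPM, 13.1-fold lower (5.05 to 48.5), with all of its floor reads in floor cell 3. Of 20 measured transition and adhesion genes 16 lay within 2-fold, against 44.7% of all measured genes. The shares of all measured genes past 2-fold were 26.3% higher and 29.0% lower. Of 9 measured integrin genes 4 were at least 2-fold higher, 1 at least 2-fold lower and 4 within 2-fold. The integrin median log2 ratio was 0.90, or -0.27 without floor cell 16 over the same genes. Of 16 measured basement membrane and matrix genes 4 were at least 2-fold higher and 3 at least 2-fold lower, and the summed share was above the roof median in all 4 floor cells. The basement membrane gene nid1b stood at 282, 483, 270 and 418 CPM, above 13 of 18 roof cells.

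The flow-induced gene klf2a had 0 reads in all 4 floor cells, while 8 of 18 roof cells had reads, up to 291 CPM, at least 10.2-fold lower. The other floor cells were also at a median of 0 CPM. Flow-responsive genes as a group had no common direction: of 9 measured 2 were at least 2-fold higher, 3 at least 2-fold lower and 4 within 2-fold. Their median log2 ratio was -0.25, or -0.70 without floor cell 3 and 0.16 without roof cell 14. Genes that respond early to stress or dissociation were not higher in the floor cells: of 23 measured 2 were at least 2-fold higher and 9 at least 2-fold lower, with a median log2 ratio of -0.63. The phosphatase gene dusp1 stood at 1.75, 55.4, 263 and 73.9 CPM against a roof median of 354 CPM, 4.54-fold lower (3.42 to 6.16), or 10.6-fold without floor cell 16. Of 15 measured glycolysis genes 2 were at least 2-fold higher, 4 at least 2-fold lower and 9 within 2-fold. The flow, stress and glycolysis counts stand against 26.3% higher and 29.0% lower over all measured genes. The aldolase gene aldoaa stood at 492, 805, 811 and 669 CPM, above 16 of 18 roof cells, 2.02-fold higher (1.77 to 2.29).

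**Figure D4:**
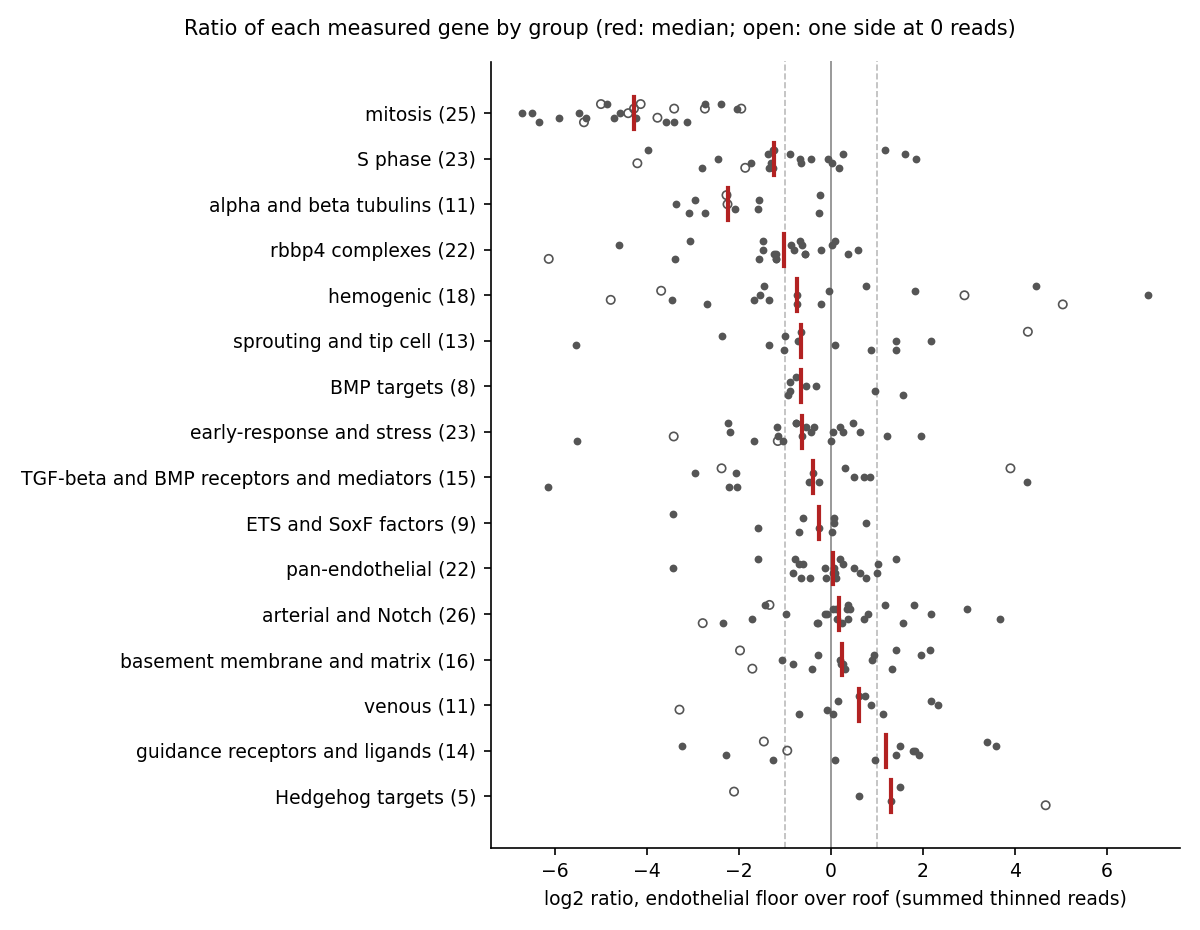
Log2 ratio of the endothelial floor cells over the roof cells, from summed thinned reads, for every measured gene of 16 groups; filled points are ratios, open circles are bounds with 1 side at 0 reads, red bars are medians and dashed lines mark 2-fold. All 25 mitosis genes lie beyond the lower line, and the guidance group has its median at 1.19, or 0.41 without floor cell 18. The group labelled Hedgehog targets also holds the signal transducer gene smo and the mediator gene gli2a.

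Over the measured genes, correlations among the 4 endothelial floor cells lay within the range of those with roof cells, 0.304 to 0.440. Over 8793 genes at equal depth, the Spearman correlation between 2 floor cells was 0.321 to 0.378 in 6 pairs, and that between a floor and a roof cell had a median of 0.365 in 72 pairs, where 2 roof cells had a median of 0.446 in 153 pairs. These values come from sparse counts and are given as a description. Each floor cell had its own leading genes, which were picked after the values were seen.

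Floor cell 3 had the highest dll4 and hey1 of the 4. Its level of the water channel gene aqp8a.1 was 5464 CPM, against 62.7, 203 and 700 CPM in the other floor cells and 416 CPM in the highest roof cell. It also had 9896 CPM of the keratin gene krt8, above the roof maximum of 2848 CPM, where the other three had 734, 2450 and 1392 CPM. Of 11 epidermal markers krt8 and cldne had reads in floor cells and 9, among them krt4, tp63, epcam and cdh1, were at 0 in all 4. The summed epidermal share was 0.0751% to 0.990% in the floor cells and 0.0263% to 0.285% in the roof, carried by krt8. The share of ribosomal protein genes was 9.84% in floor cell 3 and 4.17% to 7.77% in roof cells.

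Floor cell 6 had the highest kdrl and the lowest dll4, efnb2a and hey1 of the 4, the last named at 0. It also had the highest dab2 (1415 CPM), the highest lgmn (1139 CPM) and the lowest share of arterial and Notch genes. That share was 0.342%, against 1.59% to 2.59% in floor cells 3, 16 and 18. The roof ran from 0.375% to 1.67%, so floor cell 6 lay below every roof cell and floor cell 18 above every one. The 2.59% was that of floor cell 18, whose high level of the Notch gene nrarpa is given below. Floor cell 6 was the cell with the most mitosis reads.

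Floor cell 16 had the highest notch1b and BMP target levels, and 4896 CPM of the water channel gene aqp1a.1, inside the roof range of 58.7 to 7676 CPM. Floor cell 18 had 19847 CPM of nrarpa, a Notch-induced inhibitor of the pathway, where the roof ran from 363 through 1601 to 4981 CPM and floor cells 3, 6 and 16 had 935, 131 and 1936 CPM. Without floor cell 18 the ratio of nrarpa went from 2.95-fold higher (2.82 to 3.10) to 1.91-fold lower. The same cell had the lowest pan-endothelial share, the lowest etv2 and tie1 levels, and the highest gfi1aa, spi1a and S-phase levels of the 4.

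**Figure D5:**
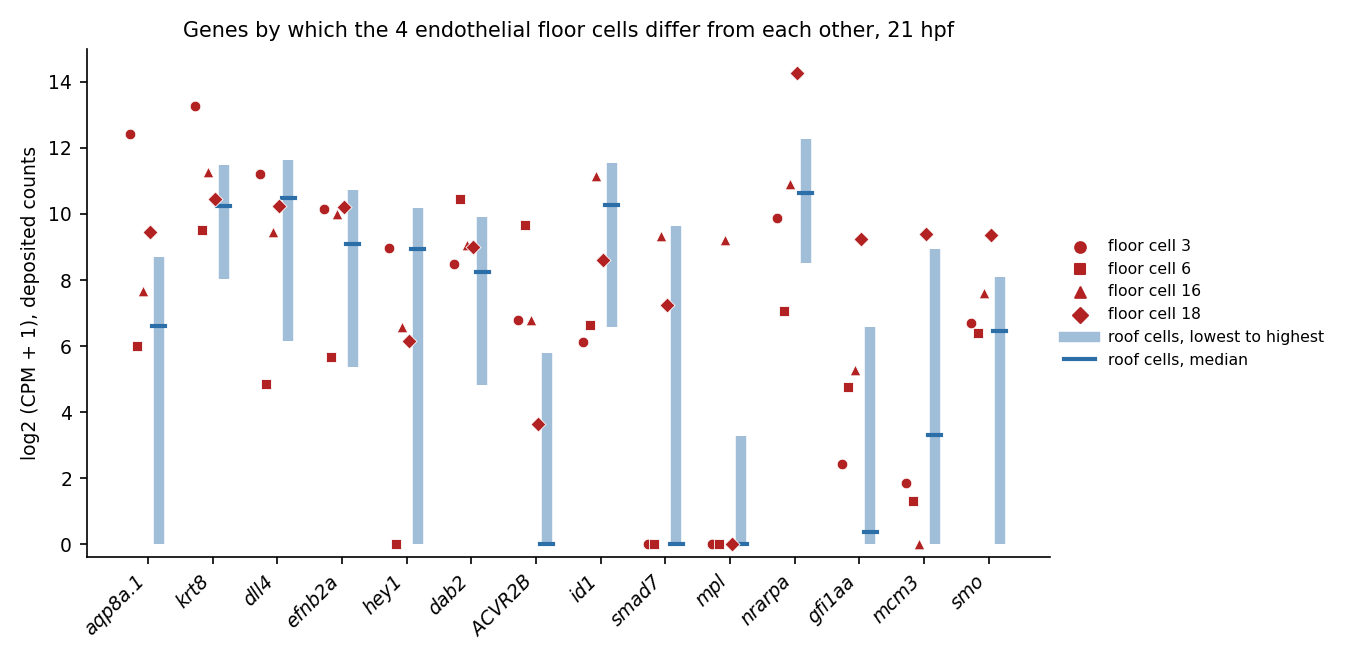
Levels of 14 genes, chosen after their values were seen, as log2 (CPM + 1) of the deposited counts; red symbols are floor cells 3, 6, 16 and 18, blue bars span 18 roof cells and dark lines are roof medians. A single floor cell leads for most genes, such as floor cell 18 for nrarpa at 19847 CPM and floor cell 3 for aqp8a.1 at 5464 CPM.

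Most markers of neighbouring tissues were at 0. None of 8 pronephros markers and none of 10 notochord and hypochord markers had a read in the 4 floor cells. Of 16 muscle markers 13 were at 0, myod1, myog and actc1b included, and the muscle share was at most 0.00875%, against up to 0.0395% in the roof. Of 14 neural markers 11 were at 0, elavl3, sox2 and gfap included, and the neural share of 0.0181% to 0.0617% rested on nova2, which the roof cells expressed too, and on tubulins. Of 12 sclerotome and mural markers only col1a2 had reads, in floor cell 6 (83.2 CPM). The part of these reads in the results was not tested.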

How the data were processed

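Smart-seq2 libraries of single cells, read as 150 bp pairs, were processed with Trim Galore and STAR, with GRCz11 (danRer11) as genome build, per the submitters' processing notes. For versions, the counter, its annotation and strand, nothing is given in the sources used here. The authors deposited whole-number counts per gene and cell, in 1 table of 35117 genes, and these counts are not normalized. Groups were taken from the sample titles. No 2 cells had identical counts. Gene names came from the file or, for 4701 identifiers, from a table of Ensembl names.

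Each cell was thinned without replacement to 125000 reads (seed 1), and thinned reads were summed over 4 floor cells (500000 reads) and 18 roof cells (2250000 reads). A gene was measured at 10 CPM or more in either sum and was called different at 2-fold. A sum of 0 was set to 3 reads, which is 6 CPM in the floor and 1.33 CPM in the roof. Ratios have exact 95% binomial intervals. Reads carry no molecular identifiers, so intervals and bounds cover counting error only. Percentages of counts and CPM of single cells used the deposited counts.

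The genes named in the text were at most 15 per direction by ratio, with 50 CPM or more in the higher group, at least 2-fold by sums, by mean CPM and with any 1 cell left out, and 5 or more thinned reads in at least 3 floor or 9 roof cells. To these came genes without overlap at 50 CPM, 37 key genes and the 3 members of each of 29 lists with the largest ratios each way. Other genes were named after their values were seen. Members and lists were chosen with earlier results of these data known, and 5 further lists were added after values were seen. The calculation was tested on simulated data. Alternatives were another depth, seed, minimum, pseudocount or centre, sums without thinning, edgeR TMM and DESeq2 size factors, and cells left out. Software was Python 3.11.15, numpy 2.4.6, pandas 2.3.3, scipy 1.17.1, matplotlib 3.10.9, R 4.3.3, edgeR 4.0.16 and DESeq2 1.42.0, the last 2 for scaling factors only.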

Additional observations from a re-analysis of the deposited data

Results flagged for a closer look

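In 29 of 190 values looked at, 1 of the 4 endothelial floor cells stood apart from the other 3 by a gap that took most of the range. The gap used marks about 1 in 20 groups of normally distributed values. Levels under 10 CPM were set to 10 CPM, so a gene with 1 cell above 10 CPM was marked by the rule itself. The rate of 1 in 20 therefore does not hold for such genes, and the number flagged is no measure of excess. Causes were not tested. Floor cell 6 stood apart in 10 values. It was highest for the shares of flow-responsive (0.0572%), mitosis (0.0684%) and sclerotome and mural genes (0.00832%), for aurkb (20.4 CPM), cb111 (33.6 CPM), ntn1a (368 CPM), robo2 (52.5 CPM), rrm2 (78.8 CPM) and ttn.2 (70.0 CPM), and lowest for efnb2a (49.6 CPM).

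Floor cell 18 stood apart in 7 values. It was highest for acvr1l (67.1 CPM), fosl1a (204 CPM), gadd45bb (38.7 CPM), mcm3 (670 CPM) and prrc2a (29.6 CPM), and lowest for rac1a (42.1 CPM) and tie1 (126 CPM). Floor cell 16 stood apart in 6 values, highest for the shares of BMP targets (0.583%) and of ETS and SoxF factors (0.625%), for daam1a (19.1 CPM), mpl (591 CPM) and smad6a (266 CPM), and lowest for ecscr (112 CPM). Floor cell 3 stood apart in the last 6, highest for blf (25.4 CPM), itga6b (291 CPM), smad6b (104 CPM) and zeb2a (68.2 CPM), and at 0 for nol9 and pex19, where the other 3 had 71.5 CPM or more.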

How the results depend on the processing

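Each group is 1 sample of 4 or 18 cells from embryos that are not named, so the spread between embryos is unknown. No paired analysis was possible because the results come from no test and the cell numbers of floor and roof name no shared embryo. With a minimum of 50 CPM, 837 genes were at least 2-fold higher and 1026 at least 2-fold lower, as fewer genes were measured. With medians of per-cell CPM and 1 CPM added, 1492 genes were at least 2-fold lower, and the median log2 ratio was -6.12 for mitosis genes and 0 for hemogenic genes. The mitosis median was -6.36 with sums of deposited counts and -5.01 with 1 CPM added. Genes without overlap numbered 17 without cells under 500000 counts and, as an alternative chosen after seeing the data, 22 without roof cells that had myb reads. TMM and DESeq2 factors shifted every log2 ratio by -0.12 and -0.10.

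Leaving out 1 cell at a time gave 2147 to 2396 higher genes, 2397 to 2621 lower genes, 9 to 35 genes without overlap, and 25 of 25 lower mitosis genes. Medians of log2 ratios were then taken over the genes measured anew without that cell. They ran from -0.43 to 0.20 for pan-endothelial, -0.07 to 0.40 for arterial and Notch and 0.37 to 0.72 for venous genes. For hemogenic genes the range was -0.96 to -0.41, and for the Hedgehog list with smo and gli2a it was 0.64 to 1.51. S-phase medians ran from -1.49 to -0.83 and mitosis medians from -4.36 to -3.81. Reversals were bambia without floor cell 16 (-0.85, highest 2.203) and, without floor cell 18, fosl1a (-1.69, highest 2.09) and mcm3 (-3.41, highest 1.64), where the highest is over all cells left out in turn. With medians of per-cell CPM the log2 ratios that reversed were mcm3 (-1.71), blf (0.83), cebpa (0.17), her9 (3.15), myb (0.79), nr2f2 (0.37) and stat1a (2.79). The causes were not tested.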

Other observations

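The 10 roof cells of 28 hpf belong to no comparison here, and their values, chosen after they were seen, are set beside those of the 4 endothelial floor cells of 21 hpf without a test. Stage, side and libraries differ together and cannot be told apart. Mitosis genes took 0% to 1.61% of the counts of these later roof cells, with a median of 0.0117%, and S-phase genes 0.00118% to 0.0767%, with a median of 0.0222%. The chromatin gene rbbp4 had a median of 0 CPM and a highest value of 170 CPM. The beta tubulin gene tubb2b had a median of 357 CPM and the histone deacetylase gene hdac1 a median of 386 CPM. Both medians lay among the values of the endothelial floor cells, but many single cells did not. For tubb2b 4 of 10 later roof cells lay above all 4 floor cells and 2 below. For hdac1 4 lay above and 4 below. The alpha tubulin gene tuba8l (median 886 CPM) was above all 4 floor cells in 7 of 10 later roof cells. The same held for ppp2r5ea (median 56.6 CPM) in 6 of 10 and for ppp1cab (median 186 CPM) in 5 of 10. Among other genes, 8 of the 10 cells had more etv2 (median 397 CPM) and 8 more tgfb1a (median 26.2 CPM) than any of the 4 floor cells. The Hedgehog mediator gene gli2a (median 121 CPM, highest 214 CPM) was below all 4 floor cells in 10 of 10, and ctnnb1 (median 381 CPM) in 8 of 10.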
